A study of Mus musculus with 3 samples.

Results

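The genes described here are 5 that mark the primary, or azurophil, granules of neutrophil precursors: Mpo, Elane, Prtn3, Ctsg and Ms4a3. All probe sets that the platform annotation pairs with exactly 1 of these symbols were taken, which gave 5 probe sets, 1 for each gene, among 18193 genes on the array. All 5 were among the 10864 genes bright enough to be measured. RNA came from bone marrow of 10-week-old C57BL/6J mice, from the Sca-1-positive, lineage-negative fraction, where stem and progenitor cells are concentrated. One array held wild type cells, another held cells of Tg(Ly6a-KDM1A*v2, Line 6, and another held cells of Tg(Ly6a-KDM1A*v2, Line 3. Both lines carry the same construct, whose name joins Ly6a, the gene of the Sca-1 antigen, to KDM1A, the gene of the histone demethylase LSD1. How many mice stand behind each array is unstated in the labels. With 1 array per genotype, no difference below has a replicate error, and all differences are descriptions of these 3 arrays.

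Azurophil granules are the first granules to form in the neutrophil lineage, at the promyelocyte stage, and secondary and tertiary granules follow in later precursors. Their content genes are switched on already in granulocyte-monocyte progenitors and are shut down before the secondary granule genes reach their peak, so the 2 groups read out successive stages of one lineage. Mpo encodes myeloperoxidase, a haem enzyme that makes hypochlorous acid. Elane, Prtn3 and Ctsg encode neutrophil elastase, proteinase 3 and cathepsin G, serine proteases that are made as inactive precursors and stored active in the granule. Ms4a3 is not a granule enzyme. It encodes a membrane protein of the MS4A family and is used as a marker of granulocyte-monocyte progenitors.

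The 5 genes lie on 4 mouse chromosomes, and Prtn3 and Elane are direct neighbours on chromosome 10. Their promoters are shown so that the start regions of genes that read nearly alike across the arrays can be set side by side. Each line gives the 250 bases before the annotated start, 5′ to 3′ on the gene's own strand, from RefSeq on GRCm38.p6, and capitals mark AGGAAGT, a form of the site bound by PU.1 and other ETS factors. The windows are chr11:87793534-87793783 for Mpo, chr10:79886062-79886311 for Elane, chr10:79879417-79879666 for Prtn3, all on the plus strand, and chr14:56102575-56102824 for Ctsg and chr19:11640852-11641101 for Ms4a3 on the minus strand.
Mpo: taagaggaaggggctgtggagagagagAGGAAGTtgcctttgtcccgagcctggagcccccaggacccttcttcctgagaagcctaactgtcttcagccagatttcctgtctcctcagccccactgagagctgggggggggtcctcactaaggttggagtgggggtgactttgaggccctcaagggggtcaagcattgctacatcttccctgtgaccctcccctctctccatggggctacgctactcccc
Elane: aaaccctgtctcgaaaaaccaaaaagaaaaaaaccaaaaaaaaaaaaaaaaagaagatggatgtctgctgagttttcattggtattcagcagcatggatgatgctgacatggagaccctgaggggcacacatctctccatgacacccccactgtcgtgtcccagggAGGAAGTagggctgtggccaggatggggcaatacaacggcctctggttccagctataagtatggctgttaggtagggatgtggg
Prtn3: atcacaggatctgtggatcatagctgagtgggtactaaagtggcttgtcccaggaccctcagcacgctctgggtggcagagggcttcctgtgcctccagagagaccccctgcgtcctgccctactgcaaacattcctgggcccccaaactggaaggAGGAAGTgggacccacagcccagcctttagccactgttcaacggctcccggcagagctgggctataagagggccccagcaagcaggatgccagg
Ctsg: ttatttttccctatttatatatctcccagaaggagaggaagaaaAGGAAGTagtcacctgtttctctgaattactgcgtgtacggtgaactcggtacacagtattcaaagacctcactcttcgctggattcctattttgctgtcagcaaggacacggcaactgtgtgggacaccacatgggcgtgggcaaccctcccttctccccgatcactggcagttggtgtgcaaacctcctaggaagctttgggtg
Ms4a3: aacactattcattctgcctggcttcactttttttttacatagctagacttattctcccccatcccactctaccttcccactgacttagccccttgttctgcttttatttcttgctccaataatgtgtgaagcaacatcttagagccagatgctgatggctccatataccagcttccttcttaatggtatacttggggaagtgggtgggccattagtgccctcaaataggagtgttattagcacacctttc
AGGAAGT was present in 4 of the 5 windows, all but that of Ms4a3, and in 7.69% of all 32851 promoter windows of the same length, with both strands searched throughout. In the neighbouring pair it began 94 bases before the start of Prtn3 and 84 bases before that of Elane, and in the other genes it lay farther out, at 223 bases in Mpo and 206 in Ctsg. The C/EBP form TTGCNNAA matched in none of the 5 windows (9.56% of all windows), the RUNX form TGTGGT matched in Ctsg alone (14.0%), and the short MYB form AACNG matched in 4 of the 5 (74.2%). No match of one motif overlapped a match of another in these 5 windows. A match describes letters only, and these arrays measured no binding.

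The arrays were scaled alike by the authors, with a mean intensity after trimming of 497 on each, and their medians over 45037 probe sets ran from 96.2 to 116. Values were compared as log2(intensity + 16) over 10864 measured genes, those whose brightest probe set reached the median of at least 1 array. The wild type array was the most distant one: 372 genes lay at least 2-fold above, or at least 2-fold below, both other arrays there, against 58 for Line 6 and 135 for Line 3. In the order wild type, Line 6 and Line 3, which is used for all readings below, Kdm1a read 2104, 2575 and 2979 on its brighter probe set and 916, 911 and 1482 on the other, and the labels do not say whether its mouse probe sets detect the transgene. Sex-linked transcripts differed too, with Xist at 2729, 6152 and 5155 and the Y-linked gene Eif2s3y at 2325, 978 and 1031. Ly6a is not reported here, so the Sca-1 label could not be checked on its own gene. Of genes of stem and progenitor cells, Kit read 603, 899 and 923 and Cd34 read 971, 1838 and 2315. The lineage antigen gene Itgam still read 2653, 1088 and 713.

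The first comparison asked whether the azurophil granule genes differed between Line 6 and wild type, and their readings were nearly equal on the 2 arrays. Mpo read 15770, 15952 and 16895. Elane read 9377, 9082 and 10689, and Prtn3 read 8902, 8712 and 10066. Wild type and Line 6 were the closer pair for each of these genes, and Line 3 was the highest array. Ctsg read 9949, 10022 and 12329. Ms4a3 read 5357, 5420 and 6567. For both of these the Line 3 reading stood above the other arrays, at 1.21-fold to 1.24-fold, and the wild type and Line 6 readings were again almost level. In such bulk RNA, fewer cells of a type and less RNA per cell cannot be told apart.

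**Figure D1:**
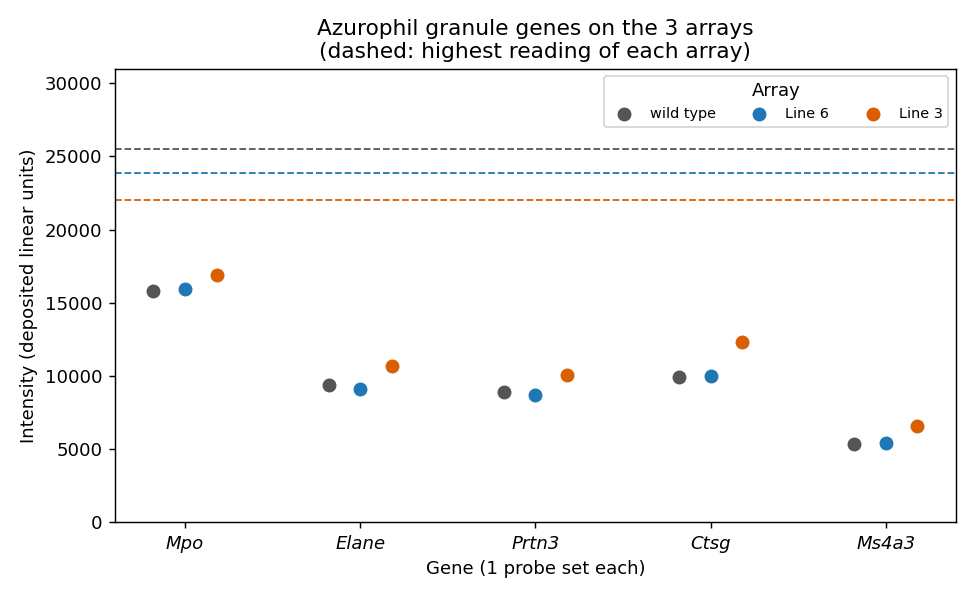
Intensity of the 5 azurophil granule genes on the wild type, Line 6 and Line 3 arrays, in the deposited linear units from 0, with 1 point per array and dashed lines at the highest reading of each array. Line 3 is the highest of the 3 arrays for all 5 genes, and Mpo, at 15770 to 16895, lies closest to the top of the scale.

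On the log2 scale, the Line 6 differences from wild type ran from -0.05 for Elane to 0.02 for Ms4a3, with a median of 0.01 over the 5 genes. The median over all 10864 measured genes was 0.06 and their SD 0.48. None of the 5 genes was 2-fold higher or lower in Line 6, where 2.57% of all measured genes were 2-fold higher and 2.41% were 2-fold lower. Of the 5, 3 lay above 0, against 57.6% of all measured genes, and none was 1.2-fold higher, against 27.3%. The small negative values of Elane (-0.05) and Prtn3 (-0.03) and the small positive values of Mpo (0.02), Ctsg (0.01) and Ms4a3 have no replicate behind them. Their sign also depends on the scaling, since the median turned to -0.23 when each array was centred on its own median.

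The second comparison set Line 3 against the same wild type array, so its values share that array with those of Line 6. All 5 genes read higher in Line 3, by 0.10 for Mpo, 0.18 for Prtn3, 0.19 for Elane, 0.29 for Ms4a3 and 0.31 for Ctsg, which is 1.07-fold to 1.24-fold. The median was 0.19, against 0.12 over all measured genes, whose SD was 0.60. None of the 5 passed 2-fold in Line 3, where 3.57% of all measured genes were 2-fold higher and 4.46% were 2-fold lower. A positive difference was common on this array, with 60.6% of all measured genes above 0, so 5 of 5 is read against that share. At a limit of 1.2-fold, chosen after the values were seen, Ctsg and Ms4a3 were higher in Line 3, as were 37.4% of all measured genes. Each of the 5 stayed above wild type in Line 3 under the other scalings.

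The third comparison, Line 3 against Line 6, does not use the wild type array. All 5 genes read higher in Line 3, by 0.08 for Mpo, 0.21 for Prtn3, 0.23 for Elane, 0.28 for Ms4a3 and 0.30 for Ctsg. The median was 0.23, against 0.05 over all measured genes with an SD of 0.38, and 56.5% of all measured genes lay above 0. No member passed 2-fold, a limit at which 0.709% of all measured genes were higher and 1.58% lower in Line 3. Line 3 was the highest of the 3 arrays for 5 of the 5 genes and for 45.6% of all measured genes.

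With both lines pooled into 1 group of 2 arrays in limma, no member passed an adjusted p of 0.05. The limma adjusted p-values, over all measured genes, ran from 0.78 for Ctsg to 0.92 for Mpo, with pooled differences of 0.16 and 0.06 on the log2 scale. In that fit 0 of 10864 genes (0.0%) passed the adjusted threshold, while 1732 (15.9%) had an unadjusted p under 0.05. A fit that called no gene at all says nothing about whether these 5 differed.

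The members read near the top of the intensity scale. Mpo ranked 53rd from the top of 45037 probe sets in wild type, 65th in Line 6 and 39th in Line 3. Ms4a3, the lowest of the 5, ranked 1103rd, 1005th and 753rd. Between these limits all 5 genes lay in the top 2.45% of each array. The highest readings of any probe set were 25535, 23867 and 22040, so the Mpo reading was 61.8%, 66.8% and 76.7% of it. Only 1.62-fold separated the wild type reading of Mpo from the top of its array, so a 2-fold higher Mpo reading would have exceeded that of any probe set there. That top is the highest reading observed, which was itself lower in Line 3, and whether it is a ceiling could not be settled. For the other members the room above the wild type reading was wider, up to 4.77-fold for Ms4a3.

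The spread of differences was narrower among the brightest probe sets than among dim ones. The SD of Line 3 minus wild type was 0.59 over the 22518 dimmest probe sets, 0.60 between percentiles 50 and 75, 0.39 between percentiles 95 and 99, 0.28 over the next 225 probe sets and 0.19 over the brightest 226. Mpo, at percentile 99.89, was in the brightest class, in which no probe set passed 2-fold in either line. Elane, Prtn3 and Ctsg were in the class of 225, where 3 probe sets were 2-fold lower in Line 3 and none was higher. Ms4a3, at percentile 97.93, was in the class below, where 39 of 1801 probe sets were 2-fold lower in Line 3 and 3 were higher. The classes rest on the mean over the same 3 arrays, so a gene bright only in wild type can fall into a lower class. Of secondary and tertiary granule genes, 13 read within the members' wild type span of 5357 to 15770. Of these, 4 were 2-fold lower in Line 6 (2.41% of all measured genes) and 9 in Line 3 (4.46%). They were picked by their wild type reading alone, the array on which most genes of that list read highest. These counts are therefore not a comparison at matched brightness. The members' differences are set next beside genes at least as bright as the dimmest member, Ms4a3. That background was added after the values were seen. Its SD of Line 3 minus wild type was 0.31, against 0.39 in the class of Ms4a3, so it is narrower than that class.

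Among the 484 measured genes at least as bright as the dimmest member, the Line 6 differences of the 5 lay in the middle, between percentiles 33.7 and 48.6. In Line 3 minus wild type they lay higher, at percentile 65.1 for Mpo, 77.3 for Prtn3, 80.0 for Elane, 92.4 for Ms4a3 and 93.2 for Ctsg. In Line 3 minus Line 6 they lay higher still. Ctsg ranked 11th from the highest of the 484, Ms4a3 14th, Elane 21st, Prtn3 27th and Mpo 109th. At 1.2-fold or more, 2.89% of these bright genes were higher in Line 3 than in Line 6, with Ctsg and Ms4a3 among them, against 22.6% of all measured genes. The same share of bright genes was 11.6% in Line 3 against wild type and 3.51% in Line 6 against wild type. Line 3 was the highest array for 37.0% of the bright genes. These ranks describe single arrays and were not tested.

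**Figure D2:**
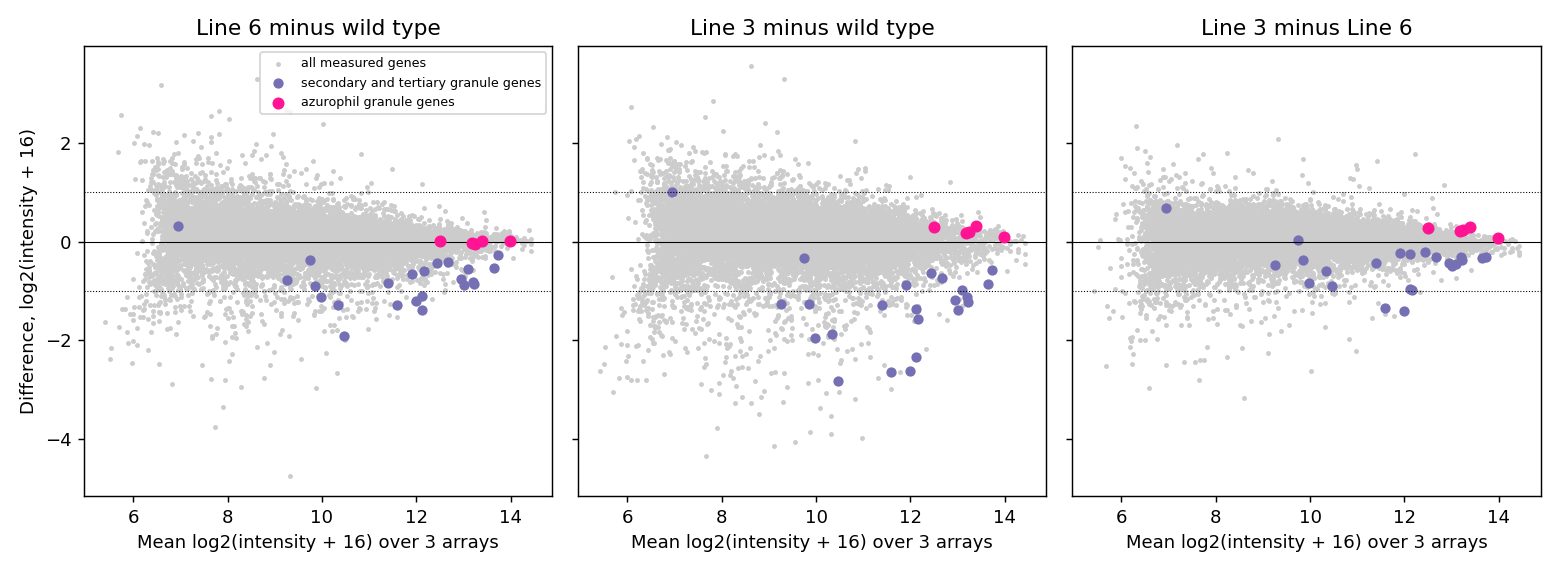
Difference in log2(intensity + 16) against the mean level over the 3 arrays for all 10864 measured genes (grey), the 5 azurophil granule genes (pink) and the 23 measured secondary and tertiary granule genes (purple), 1 panel per comparison, with dotted lines at 2-fold. The pink points lie near 0 in Line 6 and slightly above 0 in both panels of Line 3, among bright genes whose spread is narrow, while nearly all purple points lie below 0.

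Other contents of the azurophil granule lay below wild type for most, and they spread more widely than the 5 genes. Of 20 listed genes 14 were measured, and none passed 2-fold in either line. Their medians were -0.20 in Line 6 and -0.15 in Line 3. The differences ran from -0.41 to 0.36 in Line 6 and from -0.59 to 0.55 in Line 3. In Line 6, 12 of the 14 lay below 0 and 2 above, and in Line 3, 10 below and 4 above. Over all measured genes, 57.6% and 60.6% lay above 0. Lyz1, a lysozyme gene that is also carried in later granules and in macrophages, read 20800, 16602 and 13803, lower in each line. Cd68, a lysosomal membrane protein gene, read 1953, 1470 and 1534, and Stom, the stomatin gene, read 3847, 2923 and 3004. Arsb, the lysosomal arylsulfatase B gene, went the other way, at 3037, 3911 and 4439. Most of these products also belong to lysosomes of other cells, so the list is less particular to the promyelocyte than the 5 genes.

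Genes that fold, activate and store the granule proteins also stayed mostly within 2-fold. All 20 listed genes were measured, and the line medians were -0.02 and 0.07. Srgn, the serglycin core protein that holds proteases in the granule, read 11410, 10427 and 11314 (-0.13 and -0.01). Ctsc encodes dipeptidyl peptidase I, which activates elastase, proteinase 3 and cathepsin G. Its brightest probe set read 3424, 2637 and 2721 (-0.37 and -0.33). A dimmer Ctsc probe set read 426, 119 and 182 (-1.71 and -1.16) and the other one 350, 270 and 205 (-0.35 and -0.73), so the probe sets gave the same direction and different sizes.

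Among the same genes, 1 passed 2-fold in Line 3, upward (3.57% of all measured genes), and none in Line 6. G6pc3, a glucose-6-phosphatase subunit whose loss causes neutropenia in humans, read 570, 712 and 1175. Its Line 3 difference of 1.02 was 0.94 to 0.99, under 2-fold, with any of the other scalings. Pdia4, a protein disulfide isomerase of the endoplasmic reticulum, read 2018, 2352 and 3703 (0.22 and 0.87). Hsp90b1, an endoplasmic reticulum chaperone gene, read 8212, 8480 and 9332, a smaller step in the same order. On the lower side, Lyst, the Chediak-Higashi gene that keeps granules from fusing, read 1619, 1367 and 955, and Nbeal2, a gene of granule formation, read 1648, 1246 and 1077.

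The listed protease inhibitors differed among themselves. Of 16 listed, 7 were measured, and the line medians were -0.05 and -0.26. In each line 2 of the 7 lay above 0, against 57.6% and 60.6% of all measured genes. In each line 1 was 2-fold lower, against 2.41% and 4.46%. Not all of them act on the members' products, since Stfa3, Cst3 and Cstb encode inhibitors of cysteine proteases. Cst3 and Cstb were near wild type, at 8459, 8147 and 9075 and at 8354, 8116 and 7902. Serpinb1a, the cytosolic inhibitor of elastase, proteinase 3 and cathepsin G, read 5469, 3081 and 3093, which is -0.82 for both lines, and its other probe set gave -1.26 and -0.91. Slpi, the secretory leukocyte protease inhibitor, read 9552, 6710 and 6137. Both lines lay below wild type for these inhibitors, by more than any of their target proteases among the members. Stfa3, a stefin gene, was the gene past the limit, at 638, 178 and 65.2. Serpinb6b, another serpin gene, read higher in the lines, at 321, 638 and 482.

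The listed transcription factors of early granulopoiesis did not share one direction. Of 18 listed factors 17 were measured. In Line 6, 1 was 2-fold higher (2.57% of all measured genes) and 1 lower (2.41%), and in Line 3, 2 were lower (4.46%). Cebpa, the factor that starts the granulocyte programme, read 1921, 2209 and 3171, with Line 3 highest as for the members (0.20 and 0.72). Myb, an activator of Mpo and Elane, read 5756, 7152 and 7457, and its other probe sets gave 0.31 and 0.57, and 0.20 and 0.26. Spi1, which encodes PU.1, read 4625, 3283 and 3078 and so lay below wild type in both lines. Gfi1, a repressor that recruits LSD1, was level at 3310, 3004 and 3410.

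The remaining named factors differed by more. Cebpd, a factor of later granulocytes and of acute inflammation, read 3262, 1739 and 1405 (-0.90 and -1.21). Rara, the retinoic acid receptor alpha gene, read 1376, 914 and 617 (-0.58 and -1.14). Lef1, a factor of granulocyte and lymphoid progenitors, read 251, 933 and 197, and the immediate early gene Egr1 read 3690, 1313 and 4086. The Line 6 array was the high one for Lef1 and the low one for Egr1. Cebpe is not reported here.

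Genes that accompany the azurophil programme in granulocyte-monocyte progenitors and promyelocytes lay below wild type for the most part. Of 22 listed genes 19 were measured, and the line medians were -0.28 and -0.25. In Line 6, 4 lay above 0 and 15 below, and in Line 3, 7 above and 12 below. Over all measured genes, 57.6% and 60.6% lay above 0. At 2-fold, 2 and 4 genes were lower (2.41% and 4.46% of all measured genes), and 0 and 1 higher (2.57% and 3.57%). Csf3r, the receptor for granulocyte colony-stimulating factor, read 4560, 1774 and 1326 (-1.35 and -1.77). Trem3, a myeloid receptor gene, read 3869, 1629 and 1508, and Fcnb, the neutrophil ficolin B gene, read 7597, 4132 and 3081. Csf3r, Trem3 and Fcnb stay active in later neutrophil precursors, and the part of such cells in their values was not tested. Csf3r is also counted on the mature neutrophil list below. The named genes are those that differed most, and 17 of the 19 did not pass 2-fold in Line 6 and 14 in Line 3. Cd34, a stem and progenitor antigen, was the gene 2-fold higher in Line 3, by 1.24, and it was 0.91 in Line 6.

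Genes of the next granule stages stood well below wild type on the same arrays. Of 25 listed secondary and tertiary granule genes, 23 were measured. In Line 6, 7 were 2-fold lower and none higher, with a median of -0.81, and in Line 3, 15 were lower and 1 higher, with a median of -1.26. Of all measured genes, 2.41% were lower and 2.57% higher in Line 6, and 4.46% and 3.57% in Line 3. The gene on the higher side was Arg1, arginase 1, which read 75 on the wild type array and 166 on that of Line 3, and no gene of the list was 2-fold higher with any of the other scalings. Mmp9, gelatinase B of tertiary granules, read 9847, 4243 and 1598. Cd177, a neutrophil surface and granule glycoprotein, read 10596, 4024 and 2075. Mmp8, the collagenase of secondary granules, read 7586, 3111 and 1210, and the integrin gene Itgb2l read 4233, 1106 and 586. Each of these was highest in wild type and lowest in Line 3.

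Mature neutrophil genes were lower by more. Of 15 listed calprotectin and mature neutrophil genes, 12 were measured and all 12 were below 0 in both lines, at medians of -1.44 (Line 6) and -2.87 (Line 3) over the list. Of all measured genes, 57.6% lay above 0 in Line 6 and 60.6% in Line 3. At 2-fold, 9 of the 12 were lower in Line 6 (2.41% of all measured genes) and 10 in Line 3 (4.46%). Il1b, the interleukin 1 beta gene, read 5778, 898 and 370. Asprv1, a protease gene of mature neutrophils, read 3314, 626 and 184, Il1r2, the decoy interleukin 1 receptor, read 1851, 259 and 150, and Trem1, an activating receptor of neutrophils, read 1352, 294 and 126. Summed intensity over the list was 99607, 63231 and 47593. Summed over the 5 azurophil genes it was 49356, 49188 and 56546, 0.997 times wild type in Line 6 and 1.15 times in Line 3.

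**Figure D3:**
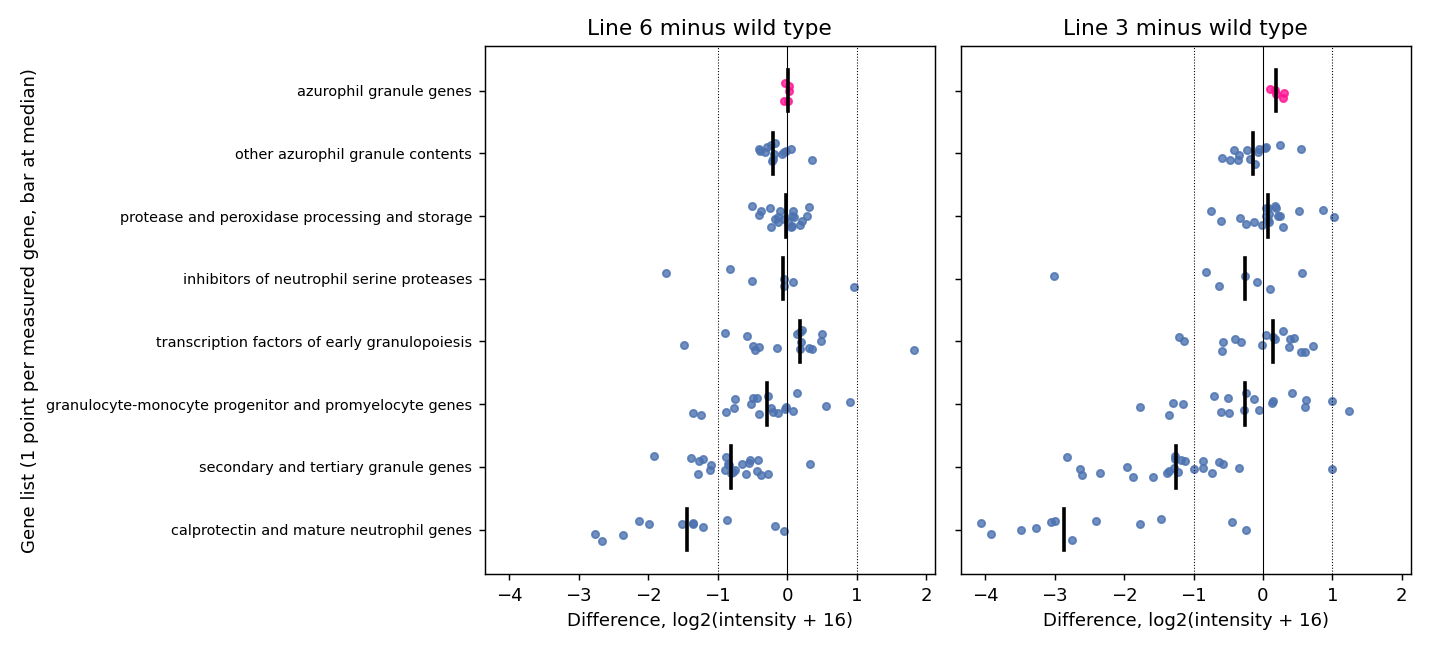
Differences in log2(intensity + 16) of Line 6 (left) and Line 3 (right) from wild type for the azurophil granule genes and 7 related gene lists, with 1 point per measured gene, a bar at each list's median and dotted lines at 2-fold. The azurophil genes sit at medians of 0.01 and 0.19, while the secondary granule list has medians of -0.81 and -1.26 and the mature neutrophil list -1.44 and -2.87.

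The relatives and chromosomal neighbours of the 5 genes varied, some reading like them and others not. Mpo lies beside Lpo and near Epx, the lactoperoxidase and eosinophil peroxidase genes. Epx, which marks eosinophils, read 9224, 12515 and 12995 (0.44 and 0.49). Lpo was dim, at 119, 149 and 208. Both peroxidase relatives were above wild type in each line, by more than Mpo. Ctsg lies in a cluster of granule protease genes, next to Mcpt8, a basophil protease gene. Mcpt8 read 2778, 3529 and 6939, which is 0.34 in Line 6 and 1.32 in Line 3.

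Of 23 listed granule serine proteases and relatives, 6 were measured, 3 of them members. Besides Mcpt8, these were the granzyme genes Gzma, at 741, 1217 and 1721, and Gzmb, at 91.2, 154 and 234, both 2-fold higher in Line 3 and not in Line 6. All 3 relatives had the order of the members in Line 3, and larger differences. The Gzmb value depended on how dim readings were treated, and was 0.94 in Line 3 with a pseudocount of 64.

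Ms4a3 lies next to Ms4a2, whose product is part of the IgE receptor on mast cells and basophils. Ms4a2 read 1351, 1752 and 3857 (0.37 and 1.5), and its other probe set gave 0.40 and 1.66. One gene further, Ms4a6d read 643, 230 and 192, lower in both lines, though a dimmer probe set gave -1.67 and -0.72. Of 19 listed Ms4a genes 10 were measured. In Line 6, 1 was 2-fold higher and 2 lower, and in Line 3, 2 were higher and 3 lower, so Ms4a3 sat between relatives of both directions. Of all measured genes, 2.57% were higher and 2.41% lower in Line 6, and 3.57% and 4.46% in Line 3. Beside Elane and Prtn3, Ptbp1, a splicing regulator, read 4050, 4331 and 5178, Plppr3 read 341, 402 and 580, Med16, a Mediator subunit gene, read 334, 351 and 386 (0.07 and 0.20), and R3hdm4 read 11367, 7442 and 6940. Med16 was thus close to Elane and Prtn3 in its differences, and R3hdm4 lay below wild type in both lines.

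**Figure D4:**
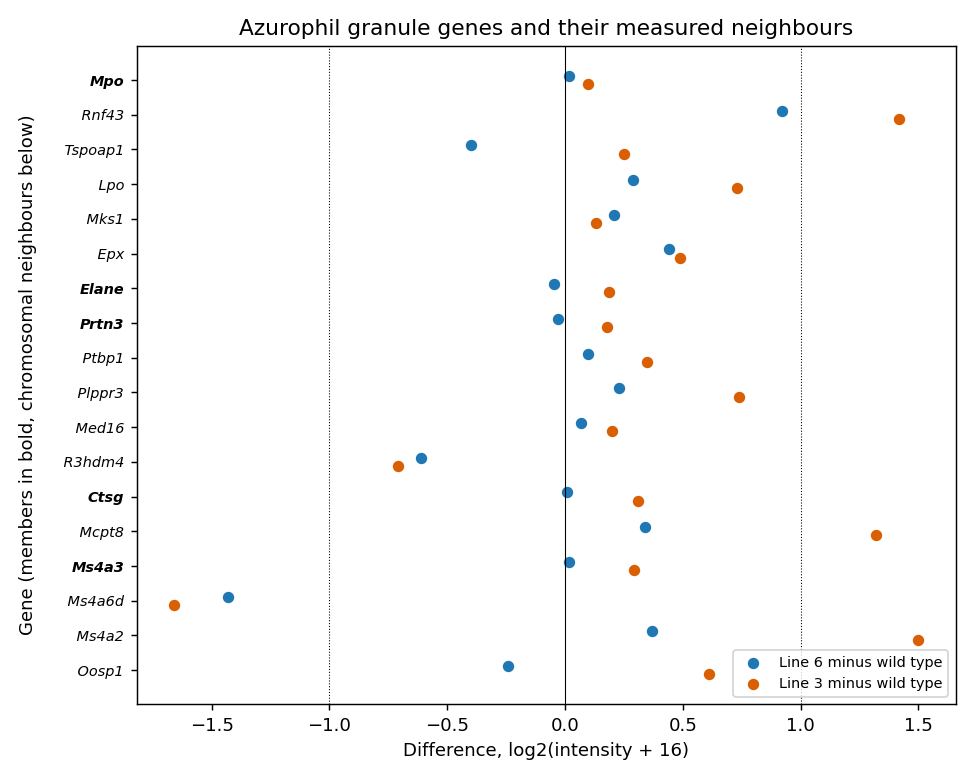
Differences in log2(intensity + 16) of Line 6 and Line 3 from wild type for the 5 azurophil granule genes (bold) and those of their 3 nearest protein-coding genes on each side that were measured, with dotted lines at 2-fold. Mcpt8 beside Ctsg and Ms4a2 beside Ms4a3 lie at 1.32 and 1.5 in Line 3, while Ctsg and Ms4a3 themselves lie at 0.31 and 0.29.

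Markers of other cell types differed between the same arrays. Of 12 listed mast cell and basophil markers 8 were measured, and their summed intensity was 15593, 15876 and 27293. None of the 8 was 2-fold higher in Line 6 (2.57% of all measured genes) and 5 were in Line 3 (3.57%), among them Cpa3, the mast cell carboxypeptidase gene, at 1281, 1480 and 3579. This is the array on which all 5 azurophil genes read highest. Of the list's defining protease genes, Cma1, Mcpt4 and Tpsb2 were too dim to be measured on any array. Eosinophil markers, 6 of 9 measured, summed to 40453, 54174 and 51584. Hdc, the histidine decarboxylase gene and the brightest marker of the mast cell list in wild type, went the other way, at 6211, 3677 and 4343. The part of either cell type in the members' readings was not tested.

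Monocyte markers, 10 of 12 measured, summed to 34290, 25931 and 26604, with 2 genes 2-fold lower in Line 6 (2.41% of all measured genes) and 3 in Line 3 (4.46%). Tissue macrophage markers, all 14 measured, summed to 7298, 14660 and 17829, with 10 and 11 genes 2-fold higher (2.57% and 3.57% of all measured genes). Cd5l, which macrophages secrete, read 65.4, 786 and 939. B cell progenitor markers, 11 of 12 measured, summed to 5240, 16215 and 7812, and stem cell markers, 14 of 18 measured, to 28409, 30893 and 36272. The stem cell sum is mostly that of bright genes such as Ly6e, and over the 14 genes the line medians were 0.66 and 1.08, with 5 and 8 genes 2-fold higher (2.57% and 3.57% of all measured genes). Plasmacytoid dendritic cell markers (7 of 8 measured) summed to 5293, 8580 and 6986, erythroid markers (7 of 11) to 21054, 22780 and 23092, megakaryocyte markers (7 of 9) to 3651, 4959 and 4173, and T and natural killer cell markers (8 of 10) to 4598, 5231 and 6462. Such sums follow the bright genes of a list. In Line 3, 4 T and natural killer cell markers lay above wild type and 4 below. Erythroid markers split there into 5 above and 2 below, and B cell progenitor markers into 7 above and 4 below. No measured marker on these lists read 0 on any array. The part of these cell types in the members' readings was not tested.

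Genes with a pattern most like that of the azurophil genes were sought among the 479 other measured genes at least as bright as the dimmest member. The measure was the distance of each gene's pair of line differences from the members' median pair over the 3 arrays. The nearest were Rpl11, a ribosomal protein gene (0.03 in Line 6 and 0.18 in Line 3), Serbp1 (0.01 and 0.16), Trim27 (0.05 and 0.19), Hsp90b1 (0.05 and 0.18) and Reep5 (0.03 and 0.16). Their distances ran from 0.023 to 0.0365 on the log2 scale. The likeness rests on 3 arrays and describes these only.

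**Figure D5:**
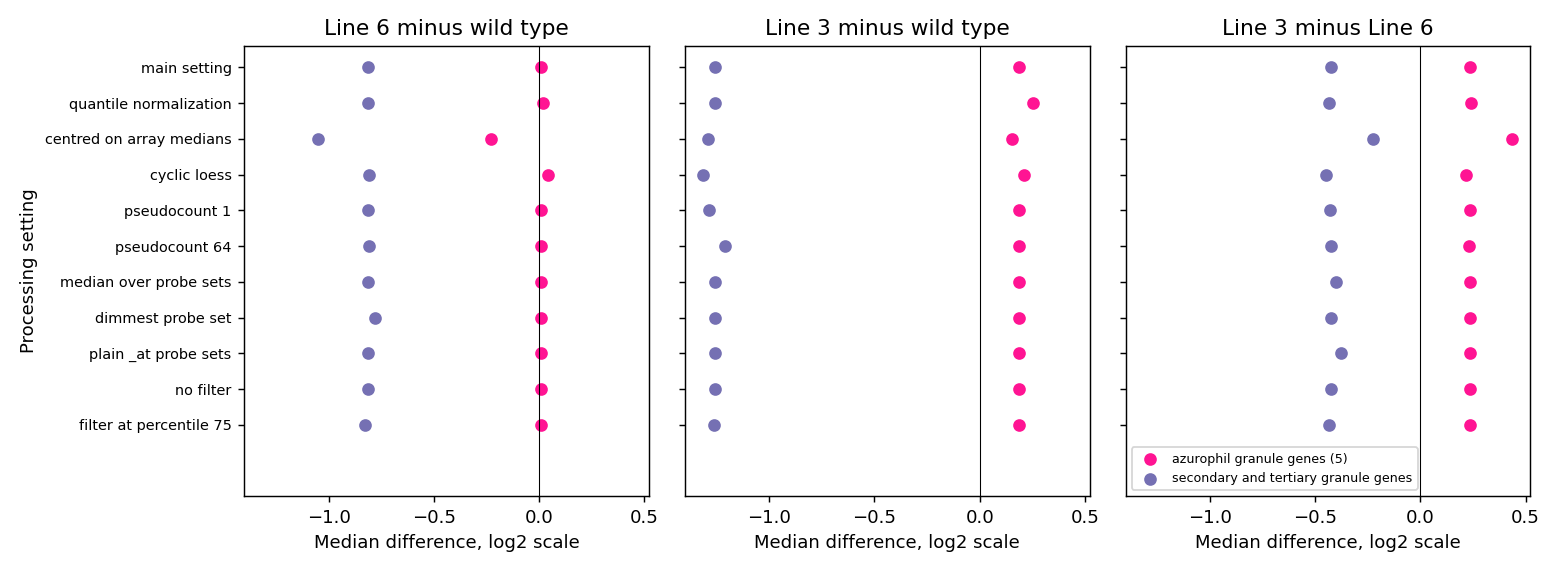
Median difference on the log2 scale of the 5 azurophil granule genes (pink) and of the secondary and tertiary granule genes (purple) under the main setting and 10 other settings of scaling, pseudocount, probe set choice and filter, 1 panel per comparison. Under all of these settings the pink point lies to the right of the purple one, and centring on array medians moves both to the left in Line 6, to -0.23 and -1.05. Probe set and filter settings cannot move the pink point, since each of its genes has 1 probe set that passes every filter.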

How the data were processed

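The deposited values are linear intensities, a single value for each probe set on an array, and the authors had scaled them before deposit, as the trimmed means (2% off each end) are equal. How they were summarised is not named in the labels. Per the labels' protocols, RNA was isolated with Trizol, went through Ovation Pico WTA amplification, was biotin-labelled (3 ug) and was hybridised to Affymetrix arrays. Each genotype had 1 array, which limits precision throughout.

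Of 45037 probe sets, 34945 had 1 symbol, 932 several and 9160 none in the annotation, and 34741 symbols were updated through Entrez identifiers (gene table GRCm38.p6). A pseudocount of 16 was added before log2, which understates differences of dim genes. The probe set with the highest mean stood for a gene, which was kept if any array put it at or above the array median. Readings of different probe sets are not levels that can be compared between genes. Up to 4 genes per list were named by the largest mean line difference, besides the members, relatives, Ctsc, 4 factors (Cebpa, Spi1, Gfi1, Myb) and the 5 genes of most similar pattern. Chromosomal neighbours, Kdm1a, Xist, Eif2s3y, Kit, Itgam, Arg1, Srgn, Hdc, Ly6e, Cst3, Cstb and Calr were named outside this rule, after values were seen. The 1.2-fold limit and the bright-gene background were added after the data were seen. The members and the 21 lists were chosen with earlier results of these data known. Promoter windows hold the 250 bases before the start. The calls were tested on simulated data, in which changes were equal in both lines and larger than any member's difference. That test therefore says nothing about the members. Python 3.11.15, numpy 2.4.6, pandas 2.3.3, matplotlib 3.10.9, limma 3.58.1 (R 4.3.3) served for the computations.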

Additional observations from a re-analysis of the deposited data

Results flagged for a closer look

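Lef1, a transcription factor gene on the list of early granulopoiesis, lay above wild type in Line 6 (1.83 on the log2 scale) and below it in Line 3 (-0.32). Its readings were 251, 933 and 197 in the order wild type, Line 6 and Line 3, a gap of -2.15 between the lines. They come from its brighter probe set, and the values of 1 other probe set are not given. With a single array per line this gap was not tested. B cell progenitor markers summed to 5240, 16215 and 7812 on these arrays, and their part in the Lef1 value was not tested.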

How the results depend on the processing

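No paired analysis was possible because each genotype had 1 array and the labels give no replicate numbers. No array could be left out for the same reason. Under 13 planned settings and 1 added one, the 5 azurophil granule genes stayed within 2-fold in every comparison, and the largest difference of any member from wild type was 0.34 on the log2 scale. Settings of probe set choice, filter and limit could not move the members' differences, since each has 1 probe set that passed every filter. Only the other scalings, the pseudocounts and the limma fit could move them. The median of Line 6 minus wild type turned from 0.01 to -0.23 after centring on array medians, a setting that shifts every gene of Line 6 equally, and it was 0.02 after quantile normalization and 0.04 after cyclic loess. The Line 3 median stayed positive, between 0.15 after centring and 0.25 after quantile normalization. The limma fit, which pools the lines and so gives no Line 3 value, had a median of 0.07, and the median of Line 3 minus Line 6 ran from 0.22 to 0.44. With the limit at 1.2-fold, 2 members passed it upward in Line 3 minus wild type and 2 in Line 3 minus Line 6. The gap between the azurophil and secondary granule medians ran from 0.79 to 0.85 in Line 6 and from 1.40 to 1.53 in Line 3. Centring shifts both medians alike and cannot change this gap.

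The balance of higher and lower calls over all measured genes depended on the scaling. Of genes past 2-fold in Line 6, 51.6% were higher on the deposited scale (279 higher and 262 lower), 34.0% after quantile normalization (178 and 345), 31.9% after cyclic loess (169 and 361) and 23.5% after centring (144 and 468). For Line 3 minus Line 6 the share was 30.9% (77 and 172) and rose to 57.9% (151 and 110) after centring, 42.3% after quantile normalization and 40.9% after cyclic loess. Without a filter, 679 genes were higher and 584 lower in Line 6, 692 and 877 in Line 3, and 276 and 557 in Line 3 minus Line 6. With a filter at percentile 75 these counts were 60 and 158, 112 and 301, and 23 and 70, and with a pseudocount of 64 they were 125 and 192, 193 and 376, and 33 and 87. In Line 6, 13 secondary granule genes were 2-fold lower after centring, against 7. Serpinb1a, Cebpd and Fcnb passed 2-fold lower in Line 6 under centring, at -1.06, -1.14 and -1.11. Signal over background was not at issue for the members, but the size of Gzmb depended on the pseudocount and that of Ms4a6d on the probe set.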

Other observations

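Among the 484 measured genes at least as bright as the dimmest azurophil gene, 14 were 1.2-fold or more higher in Line 3 than in Line 6, 2 of them Ctsg and Ms4a3. These genes were picked after their values were seen. The other 12 include the immediate early and stress response genes Fos (0.89), Dusp1 (0.67), Jun (0.57) and Nfkbia (0.36), whose Line 6 minus wild type values were -1.02, -0.97, -0.40 and -0.42. Fos read 7981, 3915 and 7276 on the wild type, Line 6 and Line 3 arrays, so the Line 6 array was the low one, unlike the pattern of the azurophil genes, in which Line 3 was the high one.

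Among the remaining genes of the 14 were Cct3, a subunit of the cytosolic chaperonin, at 4877, 5620 and 7201, Ppib, an endoplasmic reticulum isomerase gene, at 7583, 7247 and 9239, Vcp, which acts in protein degradation, at 5250, 5417 and 6800, and Hsp90aa1 at 7712, 8284 and 10301. They are single genes, and whether they share a theme was not tested. The bright chaperone gene Calr read 10102, 10775 and 10612, highest in Line 6. Of the 20 listed genes that fold, activate and store granule proteins, 16 read higher in Line 3 than in Line 6. The share over all measured genes was 56.5%. The immunoglobulin gene segment Igkv15-103 had the largest difference of the 14, at 5432, 5670 and 12638. No test bears on these values, since each genotype had 1 array.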
